A study of Mus musculus with 2 samples.

Results

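The expression of 10 genes that restrain MAP kinase signalling was compared between primary and self-renewing mouse macrophages, namely the phosphatase genes Dusp1, Dusp2, Dusp4, Dusp5, Dusp6, Dusp7 and Dusp16, the Sprouty genes Spry1 and Spry2, and Spred1. They were chosen by name, with earlier results of these data known. Their probes were found through the transcript accession that the array gives for each probe. This yielded 12 probes for these 10 of 22906 named genes. Both cultures were grown from bone marrow of C57BL/6 mice, male according to the labels and of unstated age, in RPMI1640 with serum and 100 ng/ml recombinant human M-CSF. The primary macrophages were the adherent cells at day 5. The self-renewing macrophages were taken after passage 4, from colonies that kept growing when most cells of the culture had stopped dividing, and, per the methods, were an uncloned population where no clone is named. Neither culture is labelled as having received any other agent. RNA of each was hybridised to 1 Agilent array with 1 dye, so that no difference has a replicate check and no test was made.

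MAP kinases are switched on by phosphorylation of a threonine and a tyrosine, and dual-specificity phosphatases of the DUSP family remove both. The genes are themselves induced by the pathways they restrain, which makes them feedback inhibitors, and the nuclear members are induced within minutes of a stimulus. Sprouty and Spred proteins act further upstream, between receptor tyrosine kinases and Raf. In macrophages the M-CSF receptor, a receptor tyrosine kinase, drives ERK through Ras and Raf, and Toll-like receptors drive ERK, JNK and p38 together.

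The intensity of a spot is its brightness in arbitrary units after background correction, and its error is the one the scanner software assigns to that spot. A difference is given as log2 of self-renewing over primary after each array was set to its 75th percentile, an intensity of 433.6 for the primary array and of 446.1 for the other. Its error here is that of the 2 spots together, about 0.20 log2 for bright probes. For these the software's error is nearly a fixed share of the intensity, so a multiple of it restates the difference and measures no noise. The median SD between repeat spots of 214 probes was 0.043 log2 on the primary and 0.046 log2 on the self-renewing array. The error holds neither the spread between cultures nor that between probes of the same gene. The latter was 0.33 log2 (root mean square SD over 5077 genes). Intensities of different probes cannot be set against each other.

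The 8 macrophage markers examined were well above background on both arrays, and 7 of them differed by less than 2-fold. The self-renewing macrophages had 4.68-fold more signal of Mertk, an engulfment receptor. Of 9 neutrophil markers with a probe, 8 were detected in the primary macrophages, and all 8 of these were lower in the self-renewing macrophages, where S100a8, S100a9, Ngp and Ltf were not detected, meaning not well above background. Their summed signal, in multiples of the 75th percentile, was 119 on the primary and 6.52 on the self-renewing array. The B cell gene Cd79b was at least 54.4-fold lower, while Cd79a, a further B cell marker, was at 0.41 log2. Both samples are labelled male. Of the Y-linked genes, Eif2s3y, Kdm5d, Ddx3y and Uty were detected only in the self-renewing macrophages and Sry dimly in both, at 23.8 ± 3.62 and 25.5 ± 4.02, and Xist was detected, at an intensity of 487 against 2.96, only in the primary macrophages. The primary values of Xist and of these 4 Y-linked genes do not go with the male label of that sample, and the reason was not tested. Whatever else differed along with these genes cannot be told apart from the cell type in any value below.

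In self-renewing compared with primary macrophages, Dusp6 was 2.78-fold higher and Dusp2 5.31-fold lower, and these were the members past 2-fold. Dusp7 was 1.69-fold higher and Dusp1 was 1.56-fold lower. Spry1 was detected in the primary macrophages only, Dusp5 in neither, and Dusp4, Dusp16, Spry2 and Spred1 differed by 1.17-fold or less by their brighter probes. Among all 15497 genes with a value, 4.76% reached a 2-fold higher and 8.39% a 2-fold lower value, or 13.2% either way. Against this, 1 higher and 1 lower of the 9 members with a value is no result about the members as a group. Spry1 was among the 9 through its primary spot alone and could only be lower. The median of the 9 was 0.21 log2, with 5 above and 4 below 0, where the median over all genes was -0.02 log2 and 47.9% lay above 0.

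**Figure D1:**
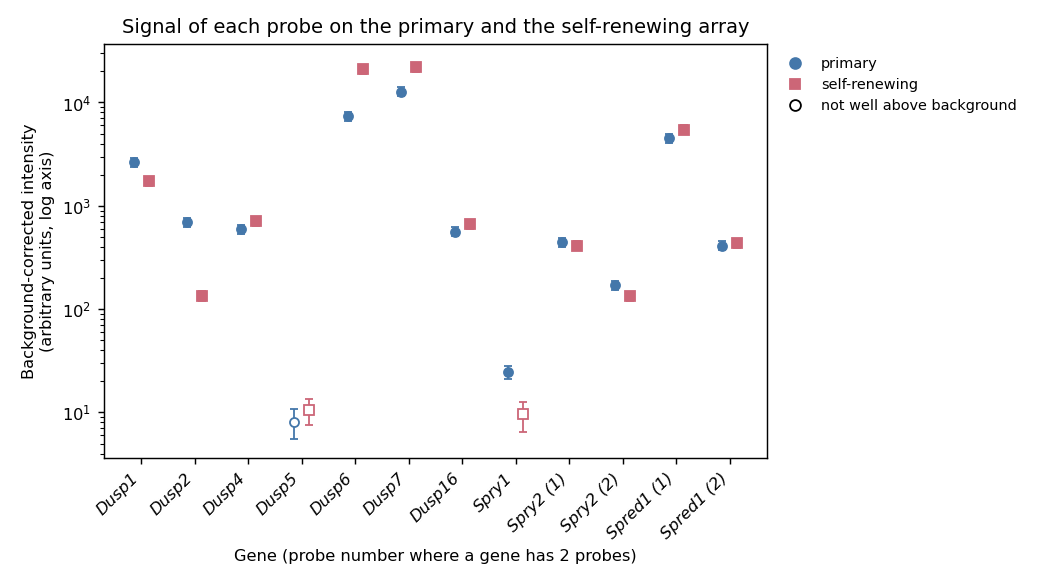
Background-corrected intensity of the 12 probes on a log axis, before scaling between the arrays, for primary (circles) and self-renewing macrophages (squares), with the scanner software's error as bars and open symbols where a spot was not well above background. The symbols of Dusp6 and Dusp2 lie far apart in opposite directions, those of Dusp5 and the self-renewing symbol of Spry1 are open, and the pairs of Dusp4, Dusp16, Spry2 and Spred1 lie close together.

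Dusp6 and Dusp7 encode cytoplasmic phosphatases that act mainly on ERK. The Dusp6 spot had an intensity of 7368 ± 737 in the primary and 21096 ± 2110 in the self-renewing cells. The signal was thus higher in the latter by 1.48 ± 0.20 log2, a difference 7.24 times its spot error. Of all genes with a value, 2.55% had a higher difference than Dusp6. The Dusp7 spot had 12700 ± 1270 in the primary and 22016 ± 2202 in the self-renewing macrophages. This is a difference of 0.75 ± 0.20 log2, 3.69 times the spot error, and 7.48% of genes had a higher one. Dusp6 and Dusp7 were therefore both on the higher side in the self-renewing macrophages, each by 1 probe, and Dusp7 did not reach 2-fold. Their higher values stand beside the higher macrophage and lower neutrophil markers given above, and the part of the cell mixture in them was not tested. Dusp9, the further cytoplasmic ERK phosphatase gene and no member here, had 57.2 ± 6.35 and 48.6 ± 5.78, a difference of -0.27 log2.

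Mapk3, which encodes ERK1, a kinase these phosphatases act on, differed less. It had 6829 ± 683 in the primary and 7257 ± 726 in the self-renewing macrophages, a difference of 0.05 log2. The difference of Dusp6 exceeded this by more than the spread between probes of the same gene. That spread is not an error for a contrast between different genes and holds no variation between cultures.

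Dusp1, Dusp2, Dusp4 and Dusp5 encode nuclear phosphatases that are made in response to stimuli. Dusp1, which acts on p38 and JNK as well as ERK and is known for limiting cytokine production in macrophages given LPS, had an intensity of 2632 ± 263 in the primary and 1733 ± 173 in the self-renewing macrophages. It was lower by 0.64 ± 0.20 log2, and 13.7% of genes had a lower difference. Dusp2, known as PAC-1 and found mainly in blood cells, had 696 ± 69.7 in the primary and 135 ± 13.8 in the self-renewing macrophages. Its difference of -2.41 ± 0.21 log2 was 11.7 times the spot error, and 2.76% of genes had a lower one. Dusp2 stayed well above background in both. The lower values of Dusp1 and Dusp2, and of Spry1 below, stand beside the lower neutrophil markers given above, whose part in them was not tested. In RNA of whole cultures, fewer cells of a type and less RNA per cell cannot be told apart.

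Dusp4, a further nuclear phosphatase, had 597 ± 59.8 in the primary and 709 ± 71.0 in the self-renewing macrophages. The difference of 0.21 ± 0.20 log2 was about the size of its spot error. Dusp5, a nuclear phosphatase specific for ERK, was not well above background on either array. Its spot was read at a raw median brightness of 46.0 over a local background of 31.0 on the primary array and 54.0 over 31.0 on the other. No fold is given for it. The 4 nuclear phosphatase genes thus differed among themselves, with Dusp2 lower at 2-fold, Dusp1 lower by less, Dusp4 higher by about its spot error and Dusp5 not detected.

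The promoter sequences of 4 of these genes are shown, Dusp6 and Dusp2 because they were the members past 2-fold, and Dusp1 and Dusp5 because they were the members in which a searched motif was found. They are RefSeq sequences of the GRCm38.p6 assembly and hold the 250 bases before the annotated start of transcription, written 5′ to 3′ along the gene. Of the 10 members, 9 had an entry in the table, and Dusp4 had none. Capitals mark a cyclic AMP response element (CRE, TGACGTCA) or a CArG box, the site bound by serum response factor, which is CC, then 6 bases that are A or T, then GG.
Dusp6 (chr10:99262981-99263230, plus strand): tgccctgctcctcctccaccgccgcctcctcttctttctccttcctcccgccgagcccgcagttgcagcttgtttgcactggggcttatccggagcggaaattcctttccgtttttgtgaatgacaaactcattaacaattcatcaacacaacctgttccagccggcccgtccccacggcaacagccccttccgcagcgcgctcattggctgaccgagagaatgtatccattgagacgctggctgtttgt
Dusp2 (chr2:127335909-127336158, plus strand): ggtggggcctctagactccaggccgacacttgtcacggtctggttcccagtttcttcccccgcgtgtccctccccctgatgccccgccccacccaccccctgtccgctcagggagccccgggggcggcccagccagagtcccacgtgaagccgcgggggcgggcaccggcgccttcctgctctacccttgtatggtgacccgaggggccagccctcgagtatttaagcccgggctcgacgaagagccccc
Dusp1 (chr17:26508473-26508722, minus strand): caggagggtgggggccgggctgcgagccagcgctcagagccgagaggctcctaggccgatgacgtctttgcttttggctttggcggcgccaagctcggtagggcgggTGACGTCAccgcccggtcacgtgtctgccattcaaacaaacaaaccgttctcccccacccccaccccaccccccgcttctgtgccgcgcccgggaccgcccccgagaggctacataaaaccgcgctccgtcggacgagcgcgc
Dusp5 (chr19:53528895-53529144, plus strand): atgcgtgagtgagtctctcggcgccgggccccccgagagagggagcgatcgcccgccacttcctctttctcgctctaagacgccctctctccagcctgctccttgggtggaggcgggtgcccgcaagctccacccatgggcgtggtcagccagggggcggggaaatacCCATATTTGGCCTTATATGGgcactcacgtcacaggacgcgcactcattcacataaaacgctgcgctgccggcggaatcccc

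The letters were searched on both strands together with those of AP-1 (TGANTCA) and of an ETS core (CCGGAA). The CRE of Dusp1 lies 143 to 136 bases before the start, and 508 of all 32851 promoters in the table, 1.55%, hold these letters. Dusp5 has 2 CArG boxes side by side, at 82 to 73 and 72 to 63 bases before the start, where 1.47% of all promoters hold at least 1. No match was found in the promoters of Dusp6, Dusp2, Dusp7, Dusp16, Spry1, Spry2 and Spred1, which says only that these letters are not in this window. AP-1 letters occurred in 6.75% and ETS letters in 12.0% of all promoters, and in 0 of the 9 members. The G and C content of the 9 ranged from 56.4% in Dusp6 to 77.2% in Dusp7, above the median of 52.4% over all promoters. Each of the 9 also held 16 or more CpG dinucleotides, where the median promoter held 6.

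Dusp16 encodes a phosphatase for JNK and p38. Its spot had 562 ± 56.2 in the primary and 667 ± 66.8 in the self-renewing macrophages, a difference of 0.21 ± 0.20 log2, close to its spot error. Its substrate kinases were measured too. Mapk8, which encodes JNK1, gave differences of 0.27, 0.51 and 0.30 log2 by its 3 probes. Mapk9, which encodes JNK2, gave -0.13 and -0.28 log2, and Mapk10, which encodes JNK3, gave -0.68 log2 by the probe that was detected. Mapk14, which encodes the main p38 kinase of macrophages, gave 0.38 and 0.29 log2. The JNK genes thus differed in direction among themselves.

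The Sprouty and Spred genes encode inhibitors of receptor tyrosine kinase signalling. The Spry1 spot read 24.7 ± 3.60 in the primary cells, against 9.58 ± 3.04 in the self-renewing cells, where it was not well above background. It was at least 1.93-fold lower in the self-renewing macrophages, measured against the lowest signal well above background on that array. Spry2 was detected on both arrays by both of its probes. The brighter had 442 ± 44.2 and 413 ± 41.4, and the dimmer 171 ± 17.3 and 134 ± 13.6, in the primary and the self-renewing macrophages. The differences of -0.14 and -0.40 log2 were each under 2 times their spot errors, and the direction of the first turned with the authors' scaling, to 0.05 log2. Spred1, whose product brings the Ras inhibitor neurofibromin to the membrane, had 4527 ± 453 and 5457 ± 546 by its brighter probe and 412 ± 41.3 and 435 ± 43.6 by the other. Its differences were 0.23 and 0.04 log2, or 1.12 and 0.19 times their spot errors. Nf1, the neurofibromin gene, gave 0.40 and 0.05 log2.

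**Figure D2:**
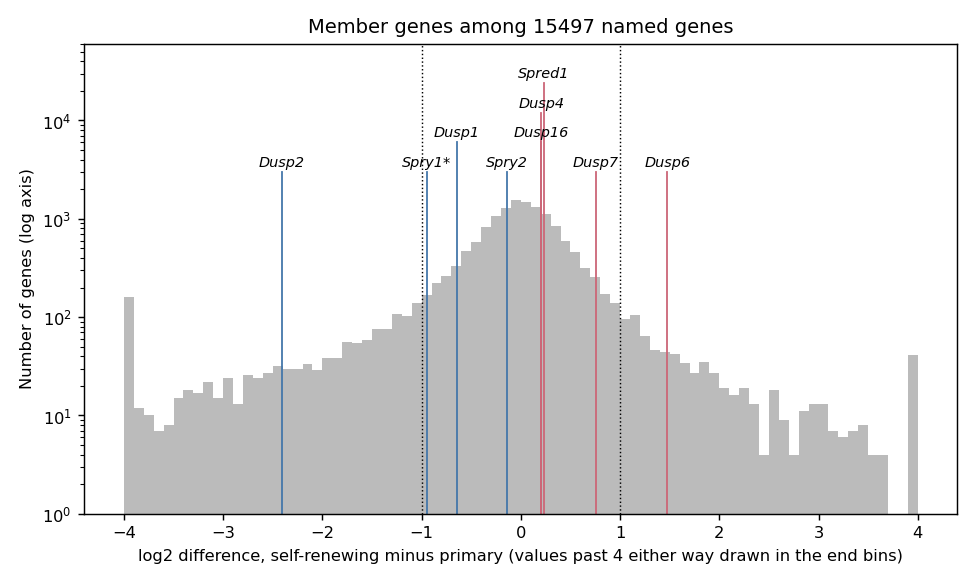
Distribution of the log2 difference, self-renewing minus primary, over all 15497 named genes with a value (grey bars, log axis), with vertical lines at the 9 members that have one and dotted lines at 2-fold; the star marks Spry1, whose value is a bound. Dusp2 and Dusp6 lie outside the dotted lines on opposite sides, and Dusp4, Dusp16 and Spred1 lie almost together at 0.21 to 0.23 log2.

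The other genes of these families served as a comparison. Of 17 further DUSP, related phosphatase, Sprouty and Spred genes, 14 were detected on at least 1 array, with a median of -0.03 log2. By the probe that stands for each gene, 0 of 14 were 2-fold higher or more and 1 was lower by that much. This was Dusp18, with 27.0 ± 3.87 in the primary macrophages and no detected signal in the other culture, at least 2.11-fold lower, while its dimmer probe gave a bound of -0.18 log2. Dusp8, whose product acts on JNK and p38, came nearest to 2-fold in the other direction and is named after its values were seen. Its brighter probe had 89.6 ± 9.27 and 182 ± 18.4, a difference of 0.98 log2, and its dimmer probe gave 2.05 log2. Spred2 and Spred3 differed by -0.09 and 0.12 log2 by their brighter probes, and Spry3 and Spry4 were not well above background on either array.

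In the cascade from the M-CSF receptor to ERK, no gene reached 2-fold. All 22 genes of the list were well above background on both arrays, with a median of 0.04 log2. Csf1r, the gene of the M-CSF receptor, gave 0.39 and 0.46 log2 by its 2 probes.

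Among 21 genes of the JNK and p38 cascade, the median was 0.22 log2, and past 2-fold 3 were higher in the self-renewing macrophages and 0 lower. All 3 encode p38 kinases other than the main one. Mapk11 had 158 ± 16.0 in the primary and 437 ± 43.7 in the self-renewing macrophages, a difference of 1.42 log2. Mapk13 had 42.3 ± 5.11 and 167 ± 17.1, a difference of 1.94 log2. Mapk12 had 15.4 ± 2.84 and 131 ± 13.3, or 3.05 log2, but its second probe was detected on the self-renewing array alone, with a bound of 0.23 log2. The primary spot of Mapk12 was close to 11.8, the lowest signal well above background there.

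Genes of the immediate early and ERK output list lay on both sides of 0. The list includes transcription factors such as Elk1 and Srf, and not all of its genes are induced by ERK. All 31 were detected in at least 1 culture, and their median was -0.01 log2. Past 2-fold, 2 were higher, Egr3 at 1.19 log2 and the receptor gene Epha2 with a bound of 6.71 log2, and 3 were lower. Nr4a1, an orphan nuclear receptor, had 917 ± 91.7 in the primary and 264 ± 26.6 in the self-renewing macrophages, a difference of -1.84 log2. Atf3, a repressor induced by stress, differed by -1.44 log2, and Ets1, a transcription factor of lymphocytes and other cells, by -1.28 log2 and by -2.26 log2 with its other probe. Etv5, an ETS factor induced by ERK, gave 0.46 log2, Fos -0.48 log2 and Egr1 -0.16 log2. The list thus held genes on the side of Dusp6 and genes on the side of Dusp2.

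Other brakes on receptors and Ras were also spread widely. All 22 were detected in at least 1 culture, with a median of 0.00 log2, and past 2-fold 1 was higher and 3 were lower. Lrig1, a membrane inhibitor of receptor tyrosine kinases, had 121 ± 12.4 in the primary and 364 ± 36.5 in the self-renewing macrophages by its brighter probe, with differences of 1.55 and 1.14 log2 by both. Errfi1, an inhibitor of the EGF receptor, had 910 ± 91.1 and 253 ± 25.5, a difference of -1.89 log2. Cblb, a ubiquitin ligase that limits receptor signalling, gave -1.89 and -1.25 log2. Rasal3, which encodes a GTPase activator for Ras in blood cells, had 674 ± 67.5 on the primary array and 3.79 ± 2.73, not well above background, on the other, and was at least 52.7-fold lower. Ets1 and Rasal3 are also used by lymphocytes. Of 4 B cell markers, 3 were detected, with a summed signal of 1.72 times the 75th percentile in the primary and 0.085 times in the self-renewing macrophages, where Cd79b was lower and Cd79a, at 0.41 log2, was not. Of 5 T and NK cell markers, 4 were detected, with sums of 2.61 and 2.43, where Nkg7 was at -1.95, Cd3e at -0.05 and Cd3d at 0.27 log2. The part of such cells in the values of Ets1 and Rasal3 was not tested. Of the 13 substrates and kinases downstream of the MAP kinases, 0 reached 2-fold, and their median was 0.17 log2.

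**Figure D3:**
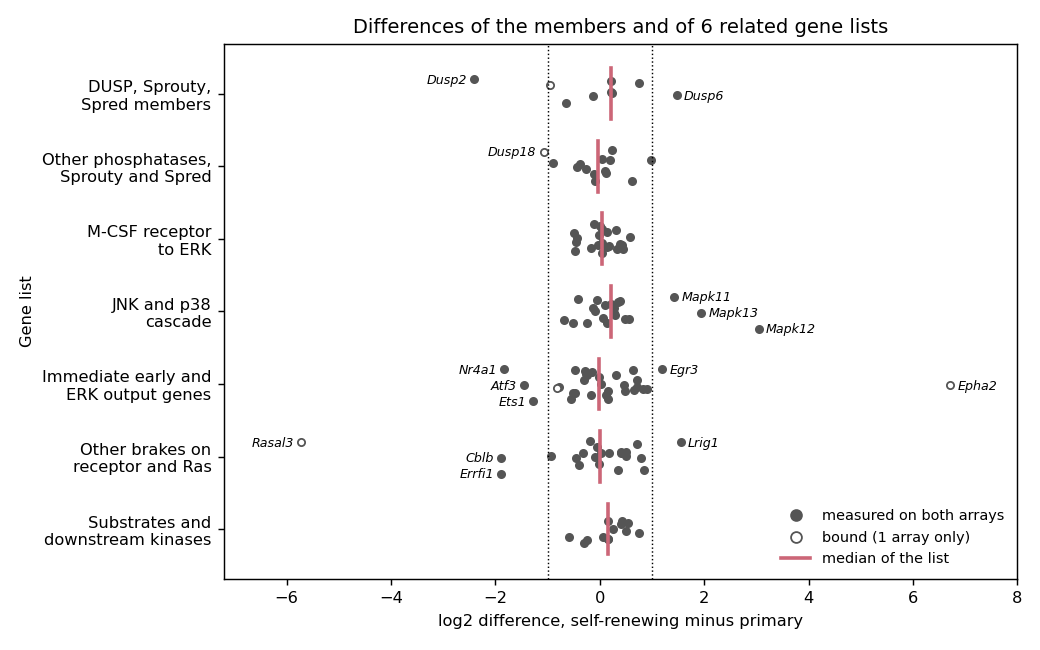
Log2 difference, self-renewing minus primary, of each gene (points, open where the value is a bound) in the members and in 6 related lists, with the list median as a bar and dotted lines at 2-fold. The M-CSF receptor to ERK cascade and the downstream kinases stay inside the dotted lines, while Epha2 and Rasal3 stand farthest out.

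Only 2 members were measured by more than 1 probe, Spry2 and Spred1, and Dusp6, Dusp7, Dusp1 and Dusp2 rest on 1 spot per array each. Dusp6 stayed between 1.42 and 1.66 log2 and Dusp2 between -2.43 and -1.99 log2 over 8 other ways of processing the arrays. Among these, only another background correction and quantile normalization could change such a gene other than by a shift common to all genes. Dusp7 stayed between 0.73 and 0.94 log2 and Dusp1 between -0.66 and -0.46 log2. The authors' scaling raised the difference of every gene by 0.19 log2, and 49.2% of the genes past 2-fold were higher in place of 36.2%.

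**Figure D4:**
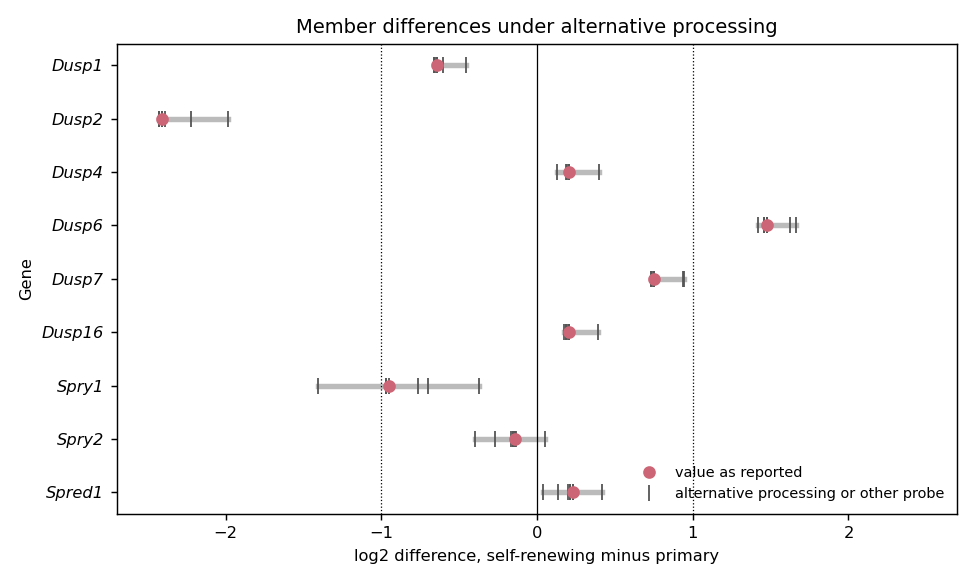
Log2 difference, self-renewing minus primary, of the 9 members with a value, as reported (circles) and under alternative processing or by the gene's other probe (ticks), with the grey bar as their range and lines at 0 and at 2-fold. Dusp6 and Dusp2 stay outside the dotted lines throughout, and Spry2 alone spans 0.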

How the data were processed

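RNA of primary and of self-renewing macrophages, 1 culture each, was hybridised to mouse Agilent arrays on 1 slide, read in 1 scan. The authors deposited scanner output of Agilent Feature Extraction 11.5.1.1, in which each spot's intensity was background-subtracted and detrended within the array and not scaled between arrays. The authors also deposited intensity values that equal these times 1 constant per array, 1.07 and 1.19, and how the constants were chosen is not given in the sources used here. Flags deposited with these values mark outlier spots and spots well above background.

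Here 112 gene spots with an outlier flag on either array were left out, spots of a probe were averaged, and log2 intensity less each array's 75th percentile was taken with no pseudocount. Accessions named 58.3% of 56598 probes through a RefSeq table of GRCm38.p6. Probe positions are of an older assembly and are not given. Of a gene's probes, the one with the highest mean log2 value over both arrays stands for it. Where a probe was well above background on 1 array only, the difference is a bound against the other array's lowest such signal, or the probe's own signal if higher. Of 15510 genes detected, 13 had no such bound. No spot was saturated. The number of arrays limits the precision, and no test was made.

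Members and lists were chosen with earlier results of these data known. Named were all members, their substrate kinases, and genes of the related lists past 2-fold whose probes went the same way; some genes that fall under this rule are not reported here. The bounds, the choice of a probe per gene and the 2-fold threshold were tested on simulated data, and the other steps were not. As alternatives, the background was corrected by normexp with offset 50 (limma 3.58.1), and use was made of quantile normalization, 2 other scalings, the authors' values, other filters and the mean over probes. Python 3.11.15, numpy 2.4.6, pandas 2.3.3, matplotlib 3.10.9 and R 4.3.3 were used.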

Additional observations from a re-analysis of the deposited data

How the results depend on the processing

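No paired analysis was possible because there was 1 array for primary and 1 for self-renewing macrophages. Values that changed by less than the between-probe SD of 0.33 log2, and counts that stayed within 1.5 times, were taken as unmoved. Of 73 values of single members under the alternatives, 70 were unmoved, but many of them could not have moved. The other scalings and the authors' values shift every gene alike, by less than this SD. The filters and the mean over probes leave a member with 1 probe detected on both arrays as it was. With the normexp correction, whose offset draws dim genes together, Dusp2 was at -1.99 log2 and Spry1 at -0.37 log2, the counts past 2-fold over all genes were 428 higher and 750 lower, and the list of further phosphatase, Sprouty and Spred genes had 0 lower and that of immediate early genes 1 higher. Mapk13, Egr3 and Ets1 then fell short of 2-fold, at 0.98, 0.60 and -0.59 log2, as did Dusp18 at -0.28 log2, while Mapk12 was at 1.38, Epha2 at 4.20, Rasal3 at -3.56 and Cblb at -1.11 log2. With no filter on background, Dusp5 was at 0.32 log2, Spry1 at -1.41 log2, 2 members were lower, 1191 of all genes were higher and 2335 lower, and the further phosphatase list had 1 higher and 2 lower. Dusp18 was then at -1.92 and Rasal3 at -7.52 log2. With only probes well above background on both arrays, 781 of all genes were lower, the phosphatase list had 0 lower and the immediate early list 1 higher. That phosphatase list had 1 higher and 0 lower with quantile normalization, with the authors' scaled values and with the mean over probes. The mean over probes put Dusp18 at -0.63, Mapk12 at 1.64 and Ets1 at -1.77 log2. With the authors' scaled values, 4 immediate early genes and 2 of the other brakes were higher. Background limits Dusp5 in both cultures and Spry1 in the self-renewing macrophages, where a level could not be measured.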

Other observations

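Zfp36l1, whose product speeds the decay of short-lived mRNAs, was in the list of immediate early genes and is named after its values were seen. Its probe with the higher mean of log2 values, which stands for the gene, had 1432 ± 143 in the primary and 1305 ± 131 in the self-renewing macrophages, a difference of -0.17 log2. The other probe had 7869 ± 787 and 69.1 ± 7.62, a difference of -6.87 log2, so that the 2 probes of the gene did not give the same value.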
